A study of Heterocephalus glaber and Mus musculus with 6 samples.

Results

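The centromere and centrosome protein genes described here are the mouse genes with a Cenp or a Cep name. They were chosen by symbol, as every gene of GENCODE vM21 (GRCm38, the mm10 assembly) whose name is Cenp plus a letter, or Cep plus a number, with at most a short suffix. There are 56 such genes, 21 Cenp and 35 Cep, all protein-coding, against 42675 Ensembl entries in each mouse table. Of the 56, 42 had an entry, 17 of the Cenp and 25 of the Cep genes. All 42 counted as measured, for which the 3 mouse libraries had to average 10 counts or more, and none was at 0. The lowest, Cep112, had a mean of 53.3 counts, so no gene lay near that threshold. The other 14 had no entry of their own and were not analysed here: Cenpb, Cenpl, Cenpo, Cenpx, Cep57l1, Cep63, Cep68, Cep72, Cep95, Cep170b, Cep192, Cep250, Cep290 and Cep350.

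The counts come from epidermal keratinocytes, the cell type that forms the skin's outer layer, of FVB mice aged 7 to 8 weeks at normal homeostasis. Cells of dorsal skin were released by enzymes and sorted for CD49f, the integrin alpha-6 protein of basal keratinocytes, and all 3 libraries are of this 1 group. The series also holds 3 naked mole-rat libraries, whose gene identifiers are paired with no names here and which were not used. The 3 mouse libraries held 52970733, 52499080 and 53465434 counts (libraries 3, 1 and 2), of which 10.6%, 11.4% and 11.5% lay in Ensembl entries and the rest in assembled loci without names. Nothing in the labels ties a library to its own animal, but the Y-linked gene Ddx3y had 0 counts in libraries 3 and 2 and 3483 in library 1. Library 1 thus held male cells, which libraries 2 and 3 all but lacked. Sex cannot be told apart from other differences of library 1. Of 8 keratinocyte marker genes, among them Krt5, Krt14 and Itga6, 0 had an entry, so the sorted identity could not be checked. Among markers of other skin cells, the leukocyte genes Ptprc and Cd3g summed to 1.61 CPM in library 3 against 0.571 and 1.31 CPM in libraries 1 and 2, while Pecam1 of endothelium summed to 0.208, against 0.191 and 0.262 CPM. Dct of melanocytes had 0.321 CPM in library 3 against 0.286 and 0.243 CPM, and Dcn of fibroblasts 0.547 against 0.495 and 0.580 CPM. Pdgfra, also of fibroblasts, had 6 counts in library 3 against 0 and 5 counts. The defining genes Kdr, Cdh5, Emcn, Tyr, Mlana, Pdgfrb, Atoh1, Krt20 and Sox2 were at 0 counts in each library. Pmel, Cd3e, Cd207, H2-Ab1 and Col1a1, from the same marker lists, had no entry, so the purity of the sort could not be checked.

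The centromere is the part of a chromosome on which the kinetochore is built, and the kinetochore holds spindle microtubules during mitosis. A histone H3 variant, CENP-A, marks the place, a set of inner proteins (the constitutive centromere-associated network) sits on it through the cell cycle, and outer proteins such as CENP-E and CENP-F join as cells enter mitosis. The centrosome is a pair of centrioles with surrounding material that organises microtubules, and in resting cells the older centriole can carry a primary cilium. In the epidermis, basal keratinocytes divide and suprabasal ones do not, and messages of the mitotic kinetochore genes are known to accumulate from late S phase to mitosis, whereas many centriole and cilium genes are used outside mitosis as well. In bulk RNA, fewer dividing cells and less of a message per cell cannot be told apart.

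Levels are given as CPM (counts per 1000000 counts of a library) and, between genes, as CPM per kb of annotated exon. Per kb, the median Cenp gene was lower than the median Cep gene in each library. The median level of the 17 Cenp genes was 1.19 CPM per kb in library 3, 1.63 in library 1 and 1.67 in library 2, against 1.75, 2.13 and 2.14 CPM per kb for the 25 Cep genes in libraries 3, 1 and 2. The 6594 measured protein-coding genes, the class to which every member belongs, had medians of 2.016, 2.126 and 2.194 CPM per kb in libraries 3, 1 and 2, so the Cenp medians lay below theirs in each library, and the Cep medians were at or below theirs. All 9964 measured genes, noncoding ones included, had medians of 1.198, 1.34 and 1.31 CPM per kb there. On the log2 scale the Cenp median minus the Cep median was −0.55, −0.38 and −0.36 in libraries 3, 1 and 2, or −0.43 ± 0.11 (SD, n = 3), which is 0.742 times the Cep level. Without genes that share over 10% of their exon bases with another gene the difference was −0.29. The 2 groups overlapped widely, and no test was made over genes, which are not replicates. Cenp genes were also shorter, with a median of 4.00 kb of exon and 10 exons, against 5.77 kb and 18 exons for Cep genes and 4.62 kb and 9 exons for protein-coding genes. Their GC content was 43.9% in the median against 45.6% for Cep genes, and 49.0% for protein-coding genes.

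**Figure D1:**
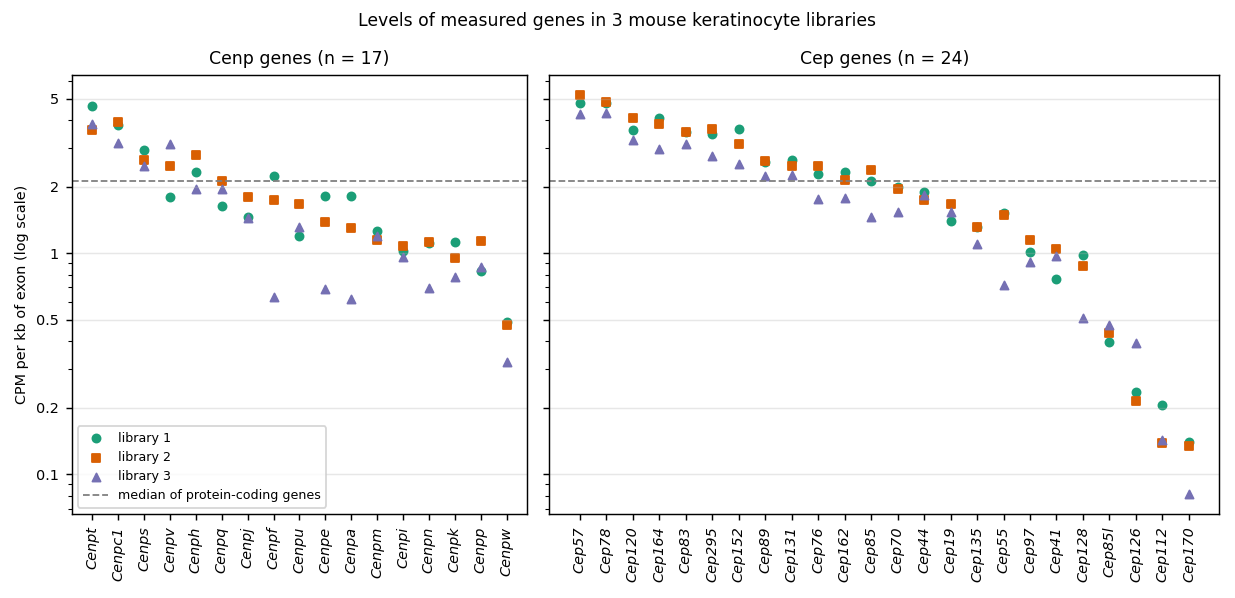
Level of the 17 Cenp genes and 24 of the 25 Cep genes in the 3 mouse libraries, in CPM per kb of exon on a log scale, ordered by mean, with a dashed line at 2.115, the median of 6594 measured protein-coding genes. Cenpf, Cenpe, Cenpa and Cep55 have library 3 well below libraries 1 and 2, while the points of Cep44 lie close together.

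Most Cep genes were lowest in library 3, and so were 11 of the 17 Cenp genes at this scaling. Cenpa, Cenpe, Cenpf and Cep55 were lower there by 2-fold or more. Each library was set against the mean log2 CPM of its 2 companions, and the difference is called its deviation. The libraries are of 1 group, so this describes how the genes varied and is no test. Library 3 was lower than both other mouse libraries for 11 of 17 Cenp and 19 of 25 Cep genes, where 47.6% of all measured genes and 49.3% of protein-coding ones were. Most counts lie in unnamed loci, and scaled to Ensembl entries alone the counts were 8 of 17 Cenp and 18 of 25 Cep genes, against 34.1% of protein-coding genes. Library 3 was at least 2-fold below the mean of the others for 3 Cenp genes and 1 Cep gene, where 6.81% of measured genes and 4.96% of protein-coding ones were. Scaled to Ensembl entries, Cep55 had −0.96 and was no longer at 2-fold. Library 3 was higher than both others for 1 Cenp and 2 Cep genes (Cenpv, Cep85l and Cep126), where 24.4% of measured genes were. At least 2-fold above it lay 0 members, against 3.53%. Library 1 was higher than both others for 8 Cenp and 11 Cep genes (38.0% of measured genes) and at least 2-fold above for Cenpa and Cenpf (5.13%). Library 2 was the highest for 8 Cenp and 12 Cep genes (37.6%), and 0 members reached 2-fold there (4.84%). Library 1 was the lowest for 4 Cenp and 3 Cep genes (29.9%) and library 2 for 2 Cenp and 3 Cep genes (22.4%). Neither was 2-fold below its companions for any member (4.18% and 2.91% of measured genes).

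The 2 groups had about the same median deviation. The Cenp genes reached lower in library 3 (−1.64 against −1.07), while the Cep genes reached higher there (0.80 against 0.56). In library 3 the median was −0.17 for Cenp and −0.24 for Cep genes, against −0.10 for all measured genes. In library 1 it was 0.11 for Cenp and 0.12 for Cep genes (0.05 for all measured genes), and in library 2 it was 0.26 and 0.14 (0.07). The Cenp minus Cep difference of these medians was 0.07, −0.01 and 0.11 in libraries 3, 1 and 2. It was −0.06 and −0.02 in library 3 without library 1 and without library 2, so its sign was not stable. The Cenp median of library 3 was −0.32 against library 2 alone and −0.25 against library 1 alone. With library 3 left out, library 1 had medians of −0.011 for Cenp and −0.003 for Cep genes against library 2. Scaled to Ensembl entries, the median of all measured genes in library 3 was 0.01 in place of −0.10, and those of the Cenp and Cep genes were −0.06 and −0.13. The median SD of log2 CPM over the libraries was 0.25 for Cenp, 0.20 for Cep, 0.18 for protein-coding and 0.24 for all measured genes.

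**Figure D2:**
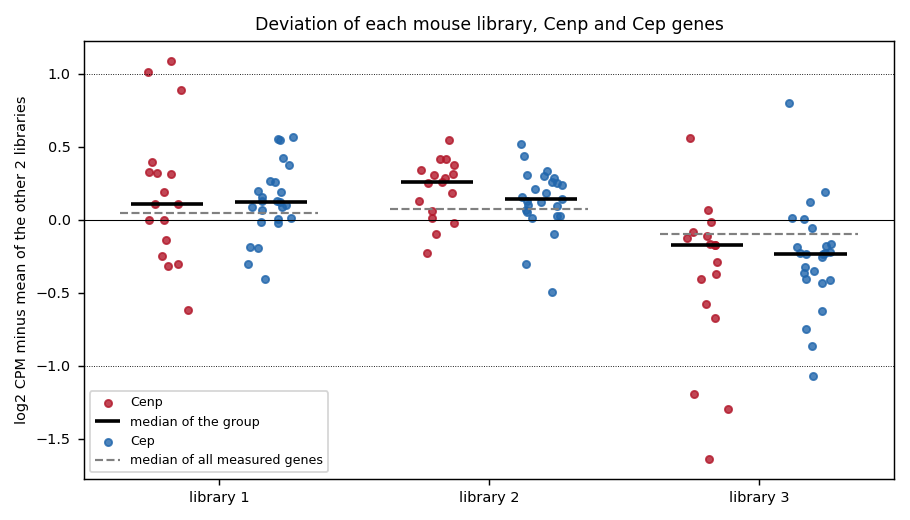
Deviation of each mouse library from the mean of the other 2, on the log2 scale, for 17 Cenp and 25 Cep genes, with black bars at the group medians, dashed lines at the median of all measured genes and dotted lines at 2-fold. In library 3 the medians, −0.17 and −0.24, lie close together while Cenpf, Cenpa, Cenpe and Cep55 lie below the 2-fold line.

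The centromeric histone gene Cenpa was among those that differed most between the libraries. Cenpa (chromosome 5, 30666777 to 30674830, GRCm38, 4 exon blocks) had 193 counts in library 3 against 557 and 405 counts in libraries 1 and 2. That is 3.64 CPM in library 3 against 10.6 and 7.57 CPM, so library 3 was the lowest and library 1 the highest. The deviation of library 3 was −1.30, or 0.407 times. Only 4.07% of measured genes had a lower deviation. The library 3 to pooled libraries 1 and 2 ratio was 0.401, with an exact 95% counting interval of 0.342 to 0.469, which covers counting error only and not the spread between animals.

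Both Cenp genes of the outer kinetochore stood with it. Cenpf (chromosome 1, 189640606 to 189688086), which encodes a large coiled-coil protein of the nuclear matrix and kinetochore, had the lowest library 3 deviation of the 42 genes, −1.64 or 0.322 times. Its counts were 517 in library 3 against 1805 and 1432 in libraries 1 and 2, and its ratio to the pooled libraries was 0.320 (counting interval 0.291 to 0.351). Cenpe (chromosome 3, 135212537 to 135273611), the kinesin motor that moves chromosomes to the spindle equator, had 5.95 CPM in library 3 against 15.6 and 11.9 CPM in libraries 1 and 2, a deviation of −1.19. Cenpa, Cenpe and Cenpf were each highest in library 1 as well, with library 1 deviations of 1.01, 0.89 and 1.09, but those are set against a mean that includes library 3. Against library 2 alone the Cenpe deviation of library 3 was −0.999, just under 2-fold.

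The inner kinetochore genes had smaller library 3 deviations than these. Of 15 listed genes of the constitutive network 12 were measured, with levels from 0.429 to 4.02 CPM per kb and a median library 3 deviation of −0.17, against −0.10 for all measured genes. Library 3 was lower than both others for 7 of the 12, where 49.3% of protein-coding genes were. It was 2-fold lower for 0, against 4.96% of protein-coding genes. Cenpt, which links centromeric chromatin to the outer kinetochore, was the highest Cenp gene per kb, at 4.02 ± 0.530 CPM per kb (SD, n = 3). Cenpt had 14.0 CPM in library 3 against 16.8 and 13.1 CPM in libraries 1 and 2, so library 3 lay between the others. Cenpc1, the gene of CENP-C, which binds the CENP-A nucleosome, followed with 17.8 CPM in library 3 against 21.3 and 22.1 CPM, or 3.62 ± 0.409 CPM per kb. Cenps, a histone-fold partner in the network, came next with 4.74 CPM in library 3 against 5.58 and 5.05 CPM.

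Within the network Cenpn, whose product recognises CENP-A nucleosomes, had the lowest library 3 deviation, −0.67, with 2.30 CPM in library 3 against 3.66 and 3.69 CPM in libraries 1 and 2. Cenpw, a histone-fold partner of CENP-T, was the lowest Cenp gene by level, at 0.429 ± 0.0921 CPM per kb. It had 72 counts in library 3 against 108 and 107 in libraries 1 and 2, a ratio to the pooled libraries of 0.670 with a counting interval of 0.506 to 0.879. Both were below both other libraries in library 3, unlike Cenpt, their neighbour in the network. Cenpq was the only one of the 12 above 0 when scaled to total counts, with a deviation of 0.06 and 5.06 CPM in library 3 against 4.25 and 5.52 CPM. Cenpm had −0.01, with 1.93 CPM against 2.04 and 1.85 CPM. After Cenpw, the lowest by level were Cenpp and Cenpk, both part of the inner network. Cenpp had 2.21 CPM in library 3 against 2.13 and 2.90 CPM, so library 2 stood above the other 2, and Cenpk had 4.08 CPM in library 3 against 5.91 and 4.96 CPM, a deviation of −0.41. The rest were Cenph at −0.37, Cenpi at −0.13 and Cenpu at −0.11. Exons of Cenpu and Cenpp share 26.7% and 12.6% of their bases with genes on the opposite strand (Primpol for Cenpu, Ippk and Aspn for Cenpp). The labels name a directional kit, but the counting is not stated to use strand, so reads of these overlapping genes cannot be told apart.

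Within a library, a ratio of counts does not depend on how libraries are scaled. Cenpf had 0.550 times the counts of Cenpc1 in library 3 against 1.61 and 1.21 times in libraries 1 and 2. For Cenpa over Cenpc1 the ratio was 0.205 in library 3 against 0.498 and 0.344, and for Cenpe over Cenpc1 0.335 against 0.731 and 0.539. By contrast Cenpt over Cenpc1 was 0.790 in library 3, against 0.789 and 0.595 in libraries 1 and 2. Relative to Cenpc1, the Cenpa, Cenpe and Cenpf counts were lowest in library 3 and highest in library 1. These pairs were not planned, and Cenpa, Cenpe and Cenpf have the lowest library 3 deviations of the Cenp genes. Their order therefore follows from the values above and adds no support.

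Of the Cenp genes outside the kinetochore structure, Cenpv had the highest library 3 deviation of its group. Cenpv encodes a protein of the centromere and microtubules (chromosome 11, 62524946 to 62539261), and had 298 counts in library 3 against 171 and 239 in libraries 1 and 2. This was 5.63 CPM against 3.26 and 4.47 CPM, a deviation of 0.56, and library 3 was the highest and library 1 the lowest. Cenpj, despite its name, encodes a centriole elongation factor (also called CPAP), and had 7.02 CPM in library 3 against 7.12 and 8.79 CPM, a deviation of −0.17 that lies within the range of the Cep genes.

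Among the Cep genes, the midbody gene Cep55 had the lowest library 3 deviation. Cep128 followed at −0.865, and its counting interval of the pooled ratio, 0.488 to 0.614, overlaps that of Cep55. Cep55 (chromosome 19, 38055011 to 38074423) encodes a protein that recruits the membrane-cutting machinery when daughter cells separate. It had 110 counts in library 3 against 231 and 232 in libraries 1 and 2, so the other 2 libraries nearly coincided. The deviation was −1.07, or 0.476 times (counting interval of the pooled ratio 0.382 to 0.586). Scaled to Ensembl entries it was −0.96 and after a fit of GC content and length −0.92, under 2-fold in both. The count ratio of Cep55 to Cep57, a gene of the material around centrioles, was 0.116 in library 3 against 0.221 and 0.199. That pair was not planned either.

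Genes of centriole duplication and pericentriolar material were mostly a little lower in library 3. Of 16 listed, 10 were measured, and their median deviation was −0.30. Library 3 was the lowest for 9 of 10 (49.3% of protein-coding genes), with 0 at 2-fold (4.96%). Cep295, which turns new centrioles into centrosomes, was the highest Cep gene by CPM, with 44.9 CPM in library 3 against 56.2 and 59.2 CPM, and 19.1% of its exon bases overlap genes on the opposite strand. Cep152, a scaffold that brings the duplication kinase PLK4 to the centriole, had 14.7 CPM in library 3 against 21.1 and 17.9 CPM. Cep85 had 7.68 CPM against 11.2 and 12.5 CPM, a deviation of −0.62, and Cep76, which limits repeated centriole duplication, 6.65 CPM against 8.63 and 9.37 CPM, a deviation of −0.44. The others, in order of deviation, were Cep70 (−0.35), Cep135 of the cartwheel (−0.26), Cep120 (−0.24), Cep97 of the centriole cap (−0.23), Cep57 (−0.22) and Cep44 (0.01). Cep57 was among the highest Cep genes per kb, with 17.9 CPM in library 3 against 19.9 and 21.8 CPM, or 4.76 ± 0.470 CPM per kb.

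Genes of centriole appendages and the cilium spread more widely than the duplication genes, from −0.86 for Cep128 to 0.80 for Cep126. Of 13 listed, 12 were measured, with a median library 3 deviation of −0.18. Library 3 was the lowest for 9 and the highest for 1, against 47.6% and 24.4% of all measured genes. Cep78, of the distal centriole, had 13.3 CPM in library 3 against 14.8 and 15.0 CPM, or 4.63 ± 0.305 CPM per kb. Cep164, an appendage protein needed to dock membranes for the cilium, had 29.7 CPM in library 3 against 40.7 and 38.4 CPM, a deviation of −0.41.

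Cep128, of the subdistal appendages, had the second-lowest deviation among Cep genes, −0.86, with 380 counts in library 3 against 729 and 658 in libraries 1 and 2. Cep170, another subdistal appendage gene, had 78 counts against 133 and 130, a deviation of −0.75, and was the lowest of the 42 genes per kb, at 0.119 ± 0.0324. Its paralog Cep170b had no entry, and how reads common to the pair were counted is not given in the sources used here. Cep126, a protein of the pericentriolar material and ciliary base, had the highest deviation of all 42 genes, 0.80. Its counts were 96 in library 3 against 57 and 53 in libraries 1 and 2, a ratio to the pooled libraries of 1.75 with a counting interval of 1.31 to 2.32. Cep85l, a paralog of Cep85, was also highest in library 3, with 3.78 CPM against 3.16 and 3.48 CPM. Cep41, which acts on tubulin of the ciliary axoneme, had 4.83 CPM in library 3 against 3.79 and 5.22 CPM, a deviation of 0.12 with library 3 between the others. Cep19 had 0.00. Cep162 had −0.32, Cep89 −0.23, Cep131 −0.19, Cep83 −0.18 and Cep78 −0.17. Cep112, on the fewest counts, had 47 counts in library 3 against 67 and 46.

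Other genes of the same structures gave the setting. Of 34 further kinetochore genes, listed by function, 29 were measured, with a median library 3 deviation of −0.46. Library 3 was the lowest for 24 of 29 (49.3% of protein-coding genes) and 2-fold lower for 4 (4.96%). The 3 highest per kb varied little: Zw10, which recruits dynein to kinetochores, had 30.7 CPM in library 3 against 29.6 and 31.2 CPM, Mis12, of the outer kinetochore base, 23.6 against 23.1 and 24.1 CPM, and the checkpoint gene Mad1l1 26.7 against 29.3 and 28.7 CPM. Bub1b, a spindle checkpoint kinase-like gene picked after its values were seen, had 240 counts in library 3 against 623 and 629, a deviation of −1.38. Hjurp, the chaperone that places CENP-A, was also picked afterwards and had 49.7 CPM in library 3 against 59.9 and 59.7 CPM, a deviation of −0.27. The Cenpa to Hjurp count ratio was 0.0733 in library 3 against 0.177 and 0.127 in libraries 1 and 2.

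Of 48 further centrosome genes 34 were measured, at a median of 3.57 CPM per kb, against 1.495 for the further kinetochore genes. Their median library 3 deviation was −0.19. Library 3 was the lowest for 25 of 34 (49.3% of protein-coding genes) and 2-fold lower for 1 (4.96%). The highest per kb were Pcm1, the scaffold of centriolar satellites, with 82.8 CPM in library 3 against 92.1 and 90.9 CPM, Tubgcp2, of the microtubule-nucleating gamma-tubulin complex, with 36.0 against 39.2 and 37.0 CPM, and Mzt1, a small subunit of that complex, with 20.6 against 23.5 and 23.2 CPM. The 1 gene at 2-fold was Aspm, a spindle pole protein of mitosis, with 435 counts in library 3 against 1491 and 1124. Of 12 general cell cycle genes 8 were measured, with a median library 3 deviation of −0.99. Library 3 was 2-fold lower for 4 (4.96% of protein-coding genes) and the lowest for 8 of 8 (49.3%). Ccna2, Ccnb2 and Ccnb1, the mitotic cyclin genes, were the highest of them per kb, and Ccnb2 had 106 counts in library 3 against 359 and 209. How much of the Cenpa, Cenpe, Cenpf and Cep55 differences goes with the share of dividing cells was not tested.

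**Figure D3:**
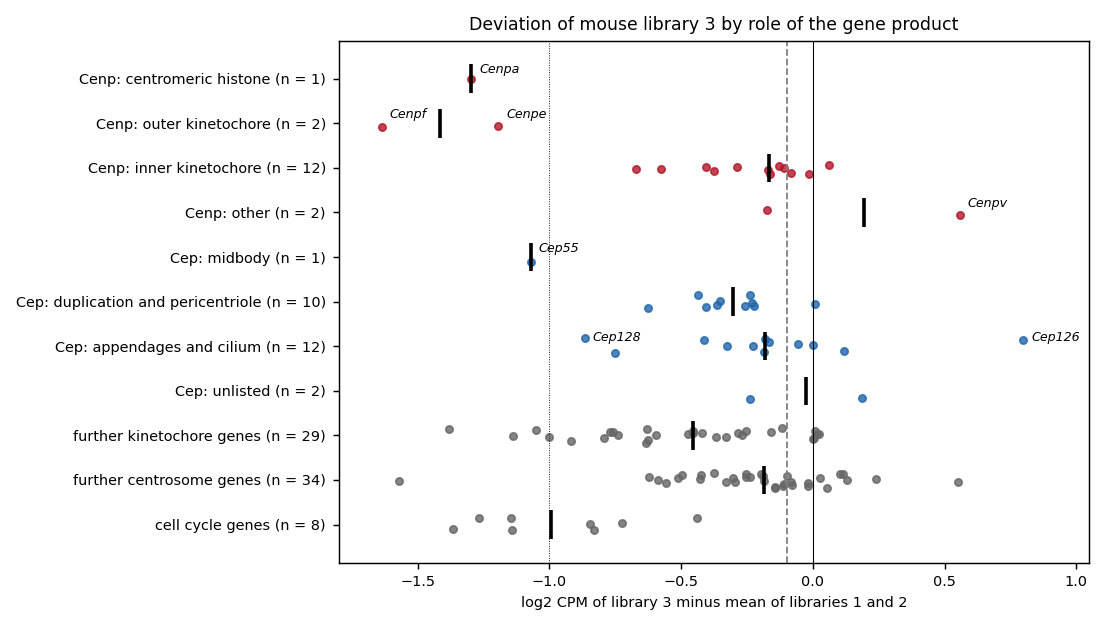
Deviation of library 3 from the mean of libraries 1 and 2 on the log2 scale, by role of the gene product, with black bars at medians, a dashed line at the median of all measured genes and a dotted line at 2-fold. Cenpa and Cenpe lie within the range of the 8 cell cycle genes (−1.365 to −0.44) and Cenpf below it, while the 12 inner kinetochore genes have a median of −0.17.

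Exon length moved with the library 3 deviation among the members. Spearman's rho across genes was −0.64 for the 17 Cenp genes, −0.28 for the 25 Cep genes and −0.07 for all measured genes, as a description over genes that share libraries. With GC content it was 0.39, −0.18 and 0.07. Cenpf (15.4 kb of exon) and Cenpe (8.62 kb) are the longest measured Cenp genes, Cep55 has 2.90 kb and Cep295 16.2 kb. After a fit of GC content and length over all measured genes, Cenpf had −1.46, Cenpa −1.16, Cenpe −1.02 and Cep55 −0.92, so 3 Cenp genes and 0 Cep genes were at least 2-fold lower in library 3. The Cenp median was then −0.069, in place of −0.17, and the Cep median −0.103, in place of −0.238. Scaling to Ensembl entries, without such a fit, gave −0.062 and −0.127. How much of these moves goes with GC content and length, and how much with a shift shared by all measured genes, was not tested. The part of length in these differences was not tested further.

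**Figure D4:**
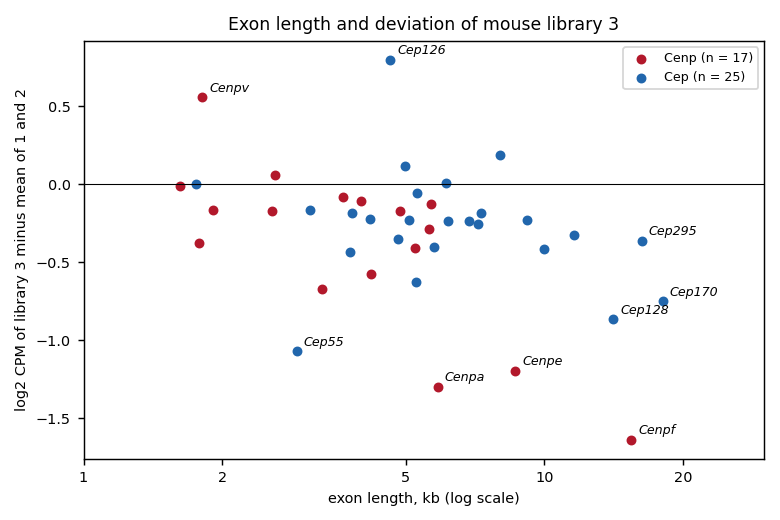
Exon length in kb on a log scale against the deviation of library 3 on the log2 scale for 17 Cenp and 25 Cep genes. Cenpf, Cep128 and Cep170 are long and lie low, Cep295 has a deviation of −0.36 at 16.2 kb, and Cep55 lies low at 2.90 kb.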

How the data were processed

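For each library the authors deposited a table of raw counts, in whole numbers, of Ensembl genes and assembled loci. The tools named in the submitters' processing notes are cutadapt, FastQC, Bowtie2 and TopHat2, with the build mm10, and the counting program is not given in the sources used here. A low count is a value of that entry only, since assembled loci may hold reads of the same genes. Mouse identifiers were joined to GENCODE vM21 symbols, exons and transcripts. CPM was taken over a library's whole total, with 0.5 added to each count before log2. Exon length is the union of annotated exons, and GC content is that of the longest transcript. Deviations have no test, since 1 library is set against 2 of its own group, and the labels tie no library to its own animal. The Y-linked counts show that library 1 holds cells of a male animal, which libraries 2 and 3 all but lack. Sex therefore differed between the libraries compared. Intervals are exact binomial ones from counts. TMM factors came from edgeR 4.0.16 in R 4.3.3; the rest was done in Python 3.11.15 (scipy 1.17.1, pandas 2.3.3, numpy 2.4.6, matplotlib 3.10.9). The deviation code was tested on simulated data. Members, roles and lists were chosen with earlier results of these data known. The rule for named genes takes, for each group, the 5 lowest and 3 highest library 3 deviations and the 3 highest and 3 lowest levels per kb in full, and any other member by value. Promoter motifs had been planned and were not analysed here. 1 Cep gene that the naming rule takes is not reported here, but stays in the group counts and medians.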

Additional observations from a re-analysis of the deposited data

How the results depend on the processing

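Of 139 alternative values for 16 group results, 126 moved by less than the spread set for that result (counts by no more than 1.5 times). Some of the 126 changed sign. The spread was 0.077 for the Cenp medians, 0.220 for the Cep medians and 0.143 for the Cenp minus Cep deviation. The Cep spread is larger than the Cep medians of libraries 1 and 2, 0.124 and 0.144. Thus a Cep median of 0.003 in library 2, without library 3, did not count as moved. The Cenp minus Cep deviation went from 0.066 to −0.061 in library 3 without library 1. In library 1 it went from −0.014 to 0.048 with Cenpj counted with Cep and Cep55 left out. Scaled to Ensembl entries, the Cenp median of library 3 was −0.062 and the count of Cep genes 2-fold lower there 0, and 8 of 17 Cenp genes, in place of 11, were lowest there. After a GC and length fit, chosen after seeing the data, the Cenp medians of libraries 2 and 3 were 0.17 and −0.069 and that Cep count was 0. The Cep medians of libraries 2 and 3 were then 0.006 and −0.103, in place of 0.144 and −0.238. Those moves lay within the wider Cep spread. Without overlapping genes, also added later, the Cenp medians of libraries 1 and 3 were 0.19 and −0.29 and the Cenp minus Cep level was −0.29. Leaving out a library gave −0.32 to −0.25 for the Cenp median of library 3, −0.011 to 0.25 for library 1 and 0.011 to 0.32 for library 2. For the Cep median it gave −0.003 to 0.23 in library 1, and for the Cenp minus Cep level −0.47 to −0.37. A library's own deviation has no value without it. The cause of these moves was not tested. Of 336 values for single genes 316 moved by less than 1 SD of the gene's log2 CPM between libraries. Cenpf ranged from −1.82 to −1.46, Cenpa from −1.54 to −1.05 and Cenpe from −1.39 to −0.999. No paired analysis was possible because no gene is matched between the species and the results come from no test. Depth limits Cep112, Cep126 and Cenpw most.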

Other observations

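Members without an entry were spread over both groups, 4 of 21 Cenp and 10 of 35 Cep genes. Exons of 2 of those 4 Cenp genes and 5 of those 10 Cep genes overlap exons of another gene, against 5 of the 17 measured Cenp and 6 of the 25 measured Cep genes. The same shares over all protein-coding genes are not given here, and whether overlap goes with a missing entry was not tested. Among the further centrosome genes, Haus7, a subunit of the augmin complex that branches spindle microtubules, had the highest library 3 deviation, 0.55, with 709 counts in library 3 against 491 and 476 in libraries 1 and 2. It was picked after its values were seen.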
